A study of Mus musculus with 11 samples.

Results

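The 40 genes described here are genes of DNA replication and mitosis, taken by symbol from a table of 13720 genes of mouse hindlimb (HL) buds at E10. They were split into 18 S-phase genes, which act in DNA synthesis, and 22 mitotic genes, which act mostly in chromosome segregation and cell division. Mki67, Top2a and the cyclin A2 gene Ccna2 were counted as mitotic. All 40 were in the table and all 40 passed the filter on low values, which asked for at least 1 CPM in 4 libraries and kept 12996 genes. CPM are counts scaled to a common library total, here after the authors' normalization and batch correction.

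Each library held both HL buds of 1 embryo, from 5 WT and 6 M1KO;M2KO embryos (written KO for single libraries), in which the homeodomain factors Meis1 and Meis2 were inactivated. An Ovation set held WT S_252 (genotype M1wtM2wt, 30 to 31 somites), WT S_254 (M1hetM2wt, 32 somites), KO S_258 (30 to 31 somites), KO S_280 (32 to 33 somites) and KO S_284 (31 to 32 somites), the 3 KO being M1koM2ko. A NEBNext set held WT 1, 3 and 4 and KO 2, 3 and 4, all at about 30 to 31 somites, the KO being HoxB6CreER;Meis1Ko;Meis2KO. Litter 1 gave both Ovation WT embryos, which were female, and KO S_258. The Ovation KO embryos were male, KO S_280 and KO S_284 coming from litters 3 and 4, so that sex and genotype cannot be told apart there. By the study's methods the Meis2 allele was conditional, Meis1 was conditional or deleted throughout the embryo, and the tamoxifen-dependent HoxB6CreER recombined the lateral plate that forms the HL. The buds also held ectoderm, blood and vessels, and recombination in these was not measured here. WT S_254, heterozygous for Meis1, was kept in the WT group that its label gives.

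The cell cycle alternates DNA synthesis in S phase with division in mitosis. Cyclin E with CDK2 starts S phase, the MCM helicase is loaded at origins and activated there, and cyclin B with CDK1 drives mitosis, when the spindle checkpoint holds chromosomes until they are attached. Transcripts of replication genes rise around the start of S phase under E2F factors, and those of mitotic genes rise later. The mitotic genes are controlled by the DREAM and MuvB complexes, which bind CHR elements, and by the factor NF-Y, which binds CCAAT boxes. Early limb buds consist largely of dividing mesenchyme, in which these genes serve as markers of proliferation. In such whole-bud samples fewer cycling cells and less RNA per cycling cell cannot be told apart.

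Promoters of the 2 classes held the letters of these elements in different shares. RefSeq promoters (GRCm38.p6, 250 bases before to 50 after the start) were matched for 32 of the 40 genes. Ccne2, Mcm4, Gins1, Gins2, Ccna2, Aurkb, Kif20a and Tpx2 had no entry. The searched letters were CCAAT for the CCAAT box, TTTGAA or TTCGAA for the CHR element and TTTNNCGC for an E2F-type element, on both strands, with overlapping matches each counted. The CHR letters were present in 14 of 18 mitotic promoters (77.8%), in 3 of 14 S-phase promoters (21.4%) and in 16.3% of the 9829 tested genes with a promoter. E2F-type letters were present in 8 of 14 S-phase promoters (57.1%), in 1 of 18 mitotic promoters (5.56%), that of Cdk1, and in 983 of the 9829 tested genes. CCAAT letters were present in 16 of 18 mitotic promoters (88.9%), in 10 of 14 S-phase promoters (71.4%) and in 43.5% of tested genes. Over all 27025 genes with a RefSeq promoter the shares were 21.7% for the CHR letters, 5.93% for the E2F-type letters and 41.1% for CCAAT. These are matches of letters and not measured binding.

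Sequence before the start is shown for 5 genes, with all 3 kinds of match in capitals and cut where it enters the annotated gene. Ccne1 was the 1 gene of the 40 that passed the test, and Mcm6 stands for S-phase genes with E2F-type letters. Mki67 and Bub1b were the mitotic genes with every KO library above every WT library, and Top2a held the most CHR and CCAAT matches among them. The stretches are chr7:38107535-38107740 for Ccne1, chr1:128359706-128359955 for Mcm6, chr7:135716380-135716629 for Mki67 and chr11:99024190-99024439 for Top2a, all on the minus strand, and chr2:118597961-118598210 on the plus strand for Bub1b.
Ccne1: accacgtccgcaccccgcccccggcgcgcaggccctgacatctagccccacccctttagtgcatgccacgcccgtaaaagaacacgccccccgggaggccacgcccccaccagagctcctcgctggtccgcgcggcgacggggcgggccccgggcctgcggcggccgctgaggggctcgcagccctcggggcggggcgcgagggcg
Mcm6: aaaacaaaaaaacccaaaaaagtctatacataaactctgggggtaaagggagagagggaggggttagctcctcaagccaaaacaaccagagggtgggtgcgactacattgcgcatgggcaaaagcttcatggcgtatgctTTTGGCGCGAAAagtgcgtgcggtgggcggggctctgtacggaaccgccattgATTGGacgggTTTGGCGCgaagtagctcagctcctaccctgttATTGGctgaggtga
Mki67: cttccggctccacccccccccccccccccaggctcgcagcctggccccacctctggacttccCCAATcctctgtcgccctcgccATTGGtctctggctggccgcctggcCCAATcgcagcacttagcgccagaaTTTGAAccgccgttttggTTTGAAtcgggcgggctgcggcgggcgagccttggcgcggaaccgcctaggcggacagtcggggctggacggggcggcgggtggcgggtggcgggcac
Bub1b: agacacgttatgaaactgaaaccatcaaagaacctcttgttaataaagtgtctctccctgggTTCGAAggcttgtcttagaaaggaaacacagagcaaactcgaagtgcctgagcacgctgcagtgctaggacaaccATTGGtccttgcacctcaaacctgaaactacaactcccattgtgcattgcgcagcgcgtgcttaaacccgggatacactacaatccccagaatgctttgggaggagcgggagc
Top2a: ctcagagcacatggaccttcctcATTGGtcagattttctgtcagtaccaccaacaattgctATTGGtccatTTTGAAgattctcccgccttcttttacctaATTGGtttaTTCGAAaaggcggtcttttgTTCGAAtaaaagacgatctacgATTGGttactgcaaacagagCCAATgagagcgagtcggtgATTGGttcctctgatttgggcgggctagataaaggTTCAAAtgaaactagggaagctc
In the stretches shown, Mki67 held 3 CCAAT and 2 CHR matches, Top2a 6 and 4, and Bub1b 1 of each. Mcm6 held 3 E2F-type matches, of which a pair overlapped on opposite strands, and 2 CCAAT matches. Ccne1 held none of these letters in the 206 bases shown.

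Levels of the 40 genes were high relative to other genes of the table, and 14 of them were among the 5% of tested genes with the highest mean CPM. Their median mean level was 161 CPM, against 19.8 CPM over all 12996 genes. Levels of different genes were compared per kb of exon (lengths from GENCODE M21), on which scale Rrm2, the regulated subunit of ribonucleotide reductase, was highest at 138 CPM per kb in WT and 114 in KO. Pcna, the sliding clamp, followed at 114 in WT and 112 in KO. Top2a, topoisomerase II alpha, was the highest mitotic gene at 99.7 in WT and 107 in KO. The lowest were Cdk2 among S-phase genes, at 9.91 CPM per kb in WT and 9.85 in KO, and Kif23, a motor of the central spindle, among mitotic genes, at 12.3 and 12.7. In these batch-corrected values the median coefficient of variation between embryos was 8.42% in WT and 7.52% in KO over the 40 genes. Over all tested genes it was 14.9% and 13.8%. The latter had lower levels, and the comparison was not matched for level.

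**Figure D1:**
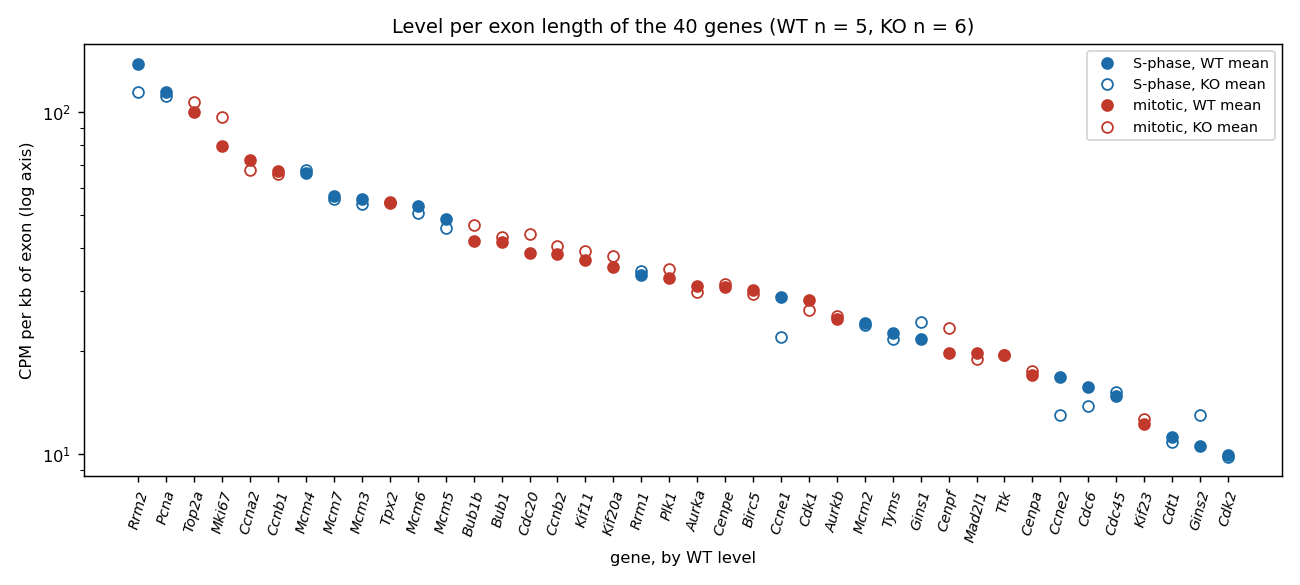
Mean level per kb of exon (log axis) of each of the 40 genes, ordered by WT level, with filled points for WT (n = 5) and open points for KO (n = 6), S-phase genes in blue and mitotic genes in red. Rrm2 (138 in WT, 114 in KO) heads the order and Cdk2 (9.91, 9.85) ends it, and open and filled points lie close together for most genes.

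Between KO and WT, 1 of the 40 genes passed the limma test across all 11 libraries (adjusted p under 0.05, two-sided). Ccne1, which encodes cyclin E1, fell, so that 1 of 18 S-phase genes was lower (1.05% of all tested genes were) and 0 of 18 were higher (1.04% of all tested genes were). Of the 22 mitotic genes 0 passed in either direction, against 272 of 12996 genes, or 2.09%, overall. At an unadjusted p under 0.05 there were 4 of 18 S-phase and 3 of 22 mitotic genes, against 14.7% of all tested genes. Among S-phase genes the median log2 FC was -0.04, with 13 below 0 and 5 above. For the mitotic genes it was 0.04, with 15 above 0 and 7 below, and for all tested genes it was 0.00038. Genes of a class share the same libraries, so these counts are not independent evidence of a direction.

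Most of the fitted changes had narrow intervals. For 30 of the 40 genes (12 S-phase and 18 mitotic) the 95% interval of the fitted change lay within 1.25-fold in either direction, and for all 40 it lay within 1.5-fold. Over all tested genes 3886 and 8681 of 12996 did. The latter had lower levels, and the comparison was not matched for level. The intervals rest on batch-corrected values, in which the residual variance can be understated. Every KO library was below every WT library for 2 of the 40 genes, Ccne1 and Ccne2, where 1.67% of all genes were so ordered. Every KO library was above every WT library for Mki67 and Bub1b, where 1.82% of all genes were.

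**Figure D2:**
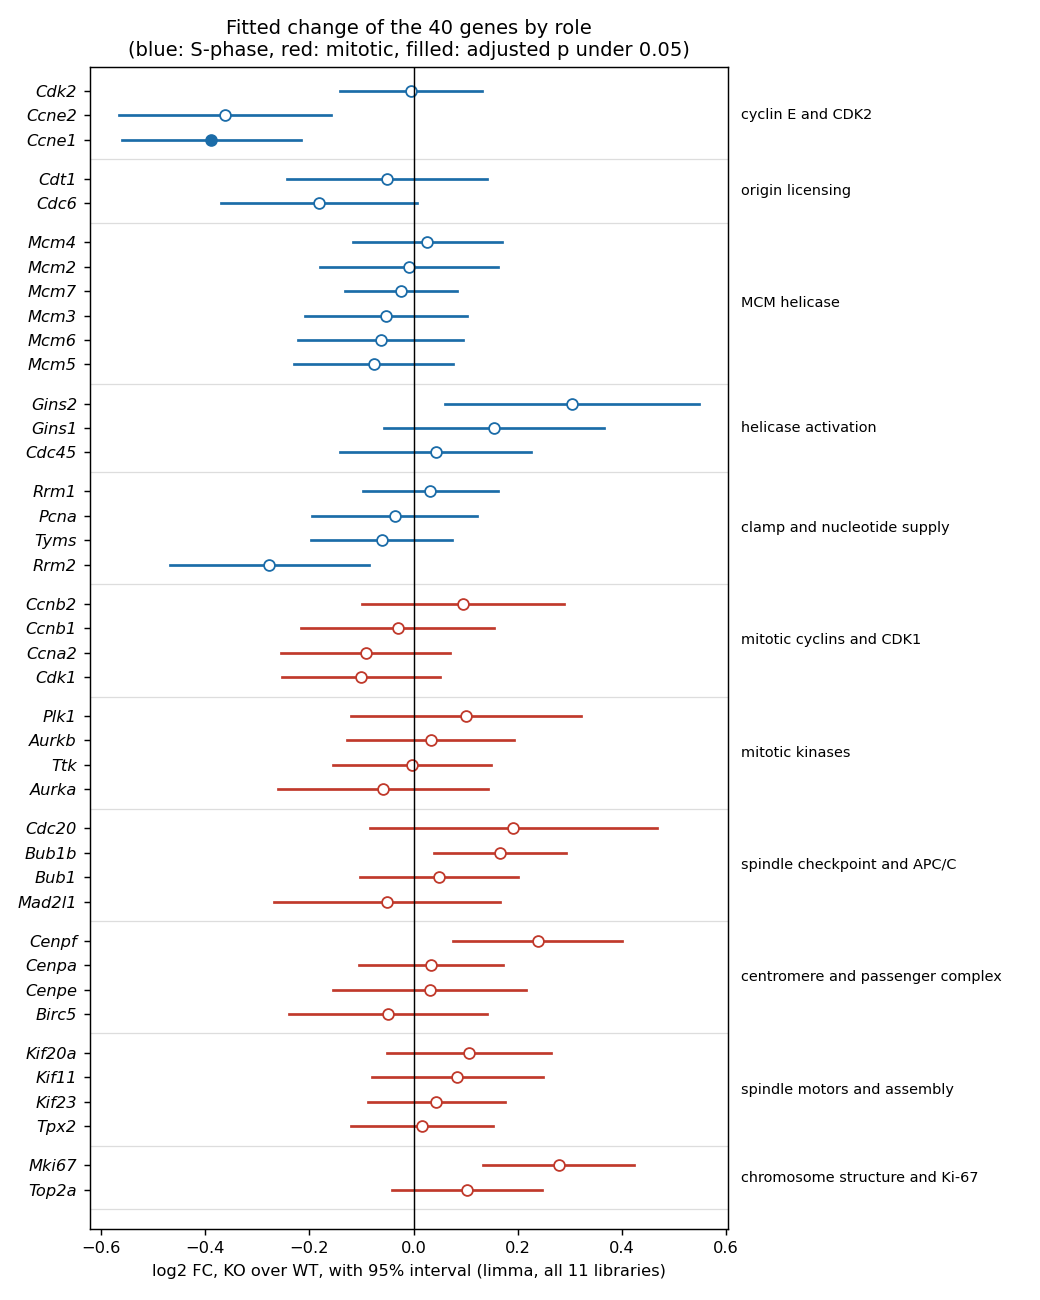
Fitted log2 FC of KO over WT with its 95% interval for each of the 40 genes, grouped by role (limma, 5 WT and 6 KO libraries). The filled point is Ccne1 at -0.39, and the intervals of most other genes span 0.

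The cyclin E genes gave the largest decreases among the 40 genes. Ccne1 (chromosome 7, 38097984 to 38107534) was at 79.6 CPM in WT S_252, 75.3 in WT S_254, 77.6 in WT 1, 78.8 in WT 3 and 70.9 in WT 4. It was at 58.3 CPM in KO S_258, 60.7 in KO S_280, 53.4 in KO S_284, 52.6 in KO 2, 56.6 in KO 3 and 69.0 in KO 4. All 6 KO libraries were below all 5 WT libraries, and KO 4 came closest to WT. The mean was 76.4 ± 3.51 CPM in WT (SD, n = 5) and 58.4 ± 5.98 in KO (SD, n = 6), 1.31-fold higher in WT (log2 FC -0.39, 95% interval -0.56 to -0.22, limma adjusted p = 0.0234). The direction was the same in both sets, with a log2 FC of -0.43 in Ovation and -0.36 in NEBNext, but neither set passed on its own (adjusted p = 0.103 and 0.282). The call was lost without WT S_252 (adjusted p = 0.0831), WT S_254 (0.0675), WT 1 (0.0559), KO S_284 (0.0540), KO 2 (0.0790) or KO 3 (0.0512), while the log2 FC stayed between -0.45 and -0.35 whichever library was left out.

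Ccne2 (chromosome 4, 11191351 to 11204779), the gene of cyclin E2, had a decrease of like size that did not pass the test. Its WT levels were 65.2 CPM in S_252, 61.6 in S_254, 52.4 in WT 1, 49.4 in WT 3 and 64.7 in WT 4. The KO levels were 45.7 CPM in S_258, 38.5 in S_280, 49.0 in S_284, 47.3 in KO 2, 46.3 in KO 3 and 46.2 in KO 4. The groups did not overlap, although KO S_284 lay just under WT 3. The mean was 58.7 ± 7.30 CPM in WT and 45.5 ± 3.61 in KO (log2 FC -0.36, limma adjusted p = 0.0701). By set the log2 FC was -0.52 in Ovation (limma adjusted p = 0.0997) and -0.24 in NEBNext (limma adjusted p = 0.445). Ccne2 passed in 1 of 11 fits that left out a library, the one without WT 3 (adjusted p = 0.0415). Its adjusted p reached 0.197 without WT S_254. Cdk2, the kinase that cyclin E binds, was at 58.3, 62.4, 64.5, 58.5 and 64.6 CPM in WT S_252, S_254, 1, 3 and 4. In KO S_258, S_280, S_284, 2, 3 and 4 it was at 58.5, 61.7, 61.1, 59.9, 65.3 and 60.9 CPM. These values overlapped throughout, and the log2 FC of -0.0050 had a 95% interval of -0.14 to 0.13.

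Of the 8 origin licensing and MCM helicase genes 0 passed the limma test, where 2.09% of all tested genes did. Of the same 8 genes 0 had a limma unadjusted p under 0.05, against 14.7% of all tested genes. Cdc6, which loads the MCM helicase, had a mean of 82.1 ± 7.60 CPM in WT and 72.4 ± 7.18 in KO, and the log2 FC was -0.18 (adjusted p = 0.362). Cdt1, its partner in loading, was at 35.3 ± 3.30 CPM in WT and 34.0 ± 2.60 in KO. All 6 subunits of the MCM2-7 ring had an interval within 1.25-fold, with log2 FC from -0.08 (Mcm5) to 0.03 (Mcm4). Mcm7 varied least of them, from 249 to 255 CPM in WT and 237 to 253 in KO. The WT and KO means were 168 and 166 CPM for Mcm2, 209 and 202 for Mcm3, 238 and 242 for Mcm4, 194 and 183 for Mcm5, and 247 and 236 for Mcm6. None of these 8 genes had groups that separated.

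Genes that turn the loaded MCM ring into a working helicase all had fitted values above 0, and none passed (2.09% of all tested genes did). Gins2 (chromosome 8, 120578633 to 120589304), a GINS subunit, was at 40.5 CPM in WT S_252, 38.3 in WT S_254, 45.1 in WT 1, 54.3 in WT 3 and 37.8 in WT 4. It was at 55.9 CPM in KO S_258, 49.1 in KO S_280, 65.3 in KO S_284, 49.9 in KO 2, 53.7 in KO 3 and 46.2 in KO 4. WT 3 lay among the KO libraries and the other WT libraries below all of them. The mean was 43.2 ± 6.83 CPM in WT and 53.4 ± 6.78 in KO (log2 FC 0.30, adjusted p = 0.215). By set the log2 FC was 0.51 in Ovation (limma adjusted p = 0.115) and 0.14 in NEBNext (limma adjusted p = 0.691). Gins1, another GINS subunit, was at 33.0 ± 2.84 CPM in WT and 36.9 ± 4.33 in KO. Cdc45, which joins MCM and GINS, was at 51.8 ± 3.67 CPM in WT and 53.4 ± 4.92 in KO.

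The clamp and the genes of nucleotide supply differed among themselves. Rrm2 (chromosome 12, 24708241 to 24714146) was at 387 CPM in WT S_252, 465 in WT S_254, 358 in WT 1, 330.4 in WT 3 and 377 in WT 4. It was at 295 CPM in KO S_258, 316 in KO S_280, 285 in KO S_284, 319 in KO 2, 318 in KO 3 and 363 in KO 4. The groups overlapped through KO 4, which was above WT 1 and WT 3. The log2 FC was -0.28 (adjusted p = 0.146) over all libraries, -0.51 in the Ovation set (adjusted p = 0.0536) and -0.09 in the NEBNext set (adjusted p = 0.692). Rrm1, the other subunit of the same enzyme, was at 369 ± 19.3 CPM in WT and 377 ± 18.03 in KO. Pcna was at 293, 295, 270.1, 239 and 275 CPM in WT S_252, S_254, 1, 3 and 4. Levels in KO S_258, S_280, S_284, 2, 3 and 4 were at 253, 276, 246, 299.5, 274 and 257 CPM. Its groups overlapped fully (log2 FC -0.04, 95% interval -0.20 to 0.12). Tyms, thymidylate synthase, was at 137 ± 5.11 CPM in WT and 132 ± 9.02 in KO.

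**Figure D3:**
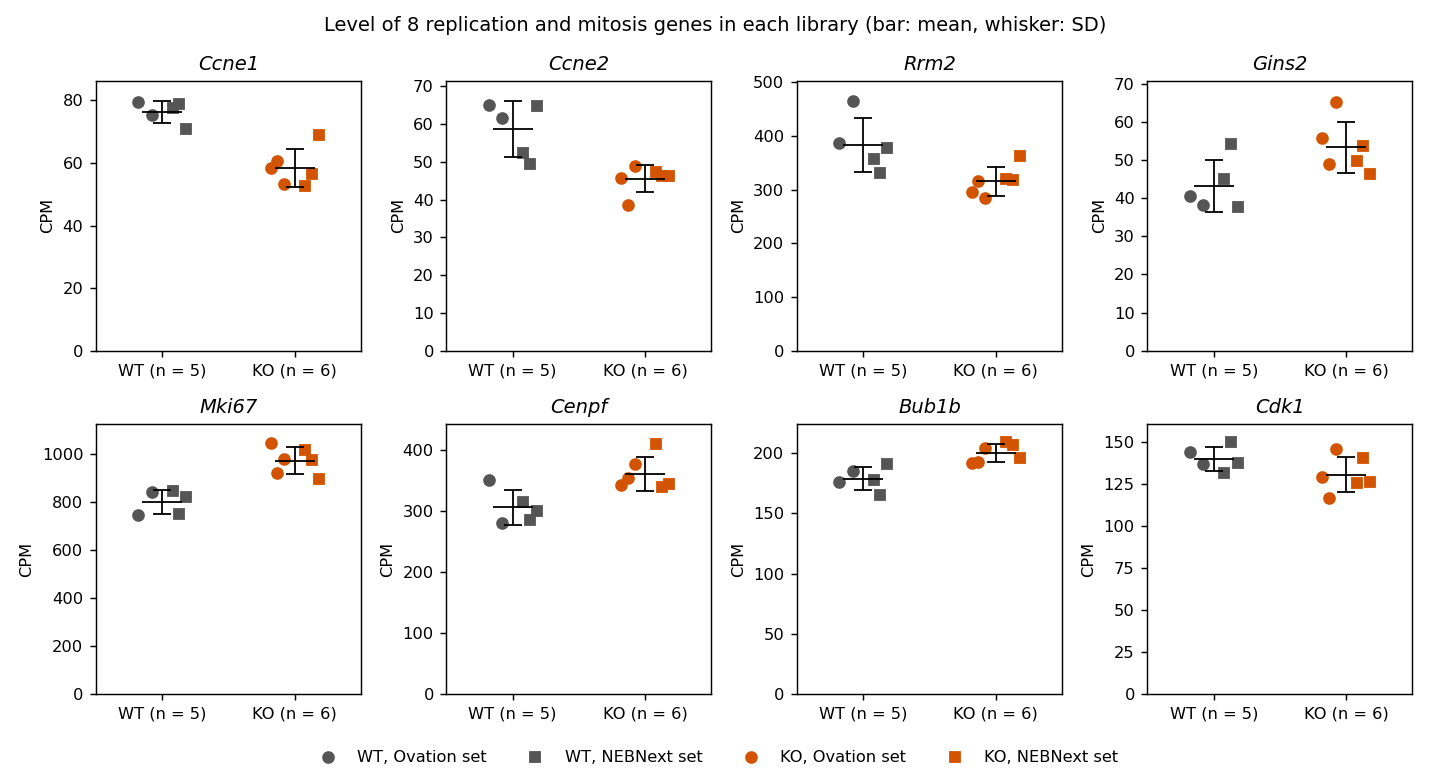
CPM of 8 of the genes in each library from 0, with circles for the Ovation set and squares for the NEBNext set, the bar at the group mean and the whisker 1 SD. KO points lie below all WT points for Ccne1 and Ccne2 and above all WT points for Mki67 and Bub1b, and the groups overlap for Rrm2, Gins2, Cenpf and Cdk1.

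Among the mitotic genes the largest difference was in Mki67, which encodes the proliferation marker Ki-67, a coat protein of mitotic chromosomes. Mki67 (chromosome 7, 135689784 to 135716361) was at 746 CPM in WT S_252, 844 in WT S_254, 847.5 in WT 1, 749 in WT 3 and 823 in WT 4. It was at 1046 CPM in KO S_258, 922 in KO S_280, 980.1 in KO S_284, 1016 in KO 2, 974 in KO 3 and 898 in KO 4. Every KO library was above every WT library. The mean was 802 ± 50.3 CPM in WT and 973 ± 55.7 in KO, a 1.21-fold difference (log2 FC 0.28, 95% interval 0.13 to 0.42) that missed the threshold with a limma adjusted p of 0.0507. Of the 11 fits with 1 library left out it passed in 1, without KO 4 (adjusted p = 0.0435), and without WT S_252 the adjusted p was 0.158. Both sets had it above 0, at 0.31 in Ovation (adjusted p = 0.181) and 0.26 in NEBNext (adjusted p = 0.323). Top2a (chromosome 11, 98992943 to 99024189), which untangles chromosomes, was at 967, 866, 940.0, 819 and 900.1 CPM in WT S_252, S_254, 1, 3 and 4. Levels in KO S_258, S_280, S_284, 2, 3 and 4 were 906, 988, 987, 1045, 925 and 941 CPM. KO 2 and WT 3 marked the ends of a range in which the groups overlapped (log2 FC 0.10, adjusted p = 0.530).

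Centromere and checkpoint genes also lay mostly above 0 over all 11 libraries. In Ovation libraries 3 of 4 centromere and 2 of 4 checkpoint genes did, and in NEBNext libraries 4 and 4 did. Cenpf (chromosome 1, 189640606 to 189688086), a kinetochore protein, was at 350.3 CPM in WT S_252, 280.1 in WT S_254, 314 in WT 1, 285 in WT 3 and 299 in WT 4. It was at 343 CPM in KO S_258, 353 in KO S_280, 376 in KO S_284, 409.9 in KO 2, 338 in KO 3 and 344 in KO 4. WT S_252 alone kept the groups from separating (log2 FC 0.24, adjusted p = 0.141). Bub1b (chromosome 2, 118598211 to 118641591), which encodes the checkpoint protein BubR1, was at 176, 185, 177, 165 and 191 CPM in WT S_252, S_254, 1, 3 and 4. Levels in KO S_258, S_280, S_284, 2, 3 and 4 were 192, 193, 204, 209, 207 and 196 CPM. The groups did not overlap, but WT 4 and KO S_258 were nearly equal, and the log2 FC of 0.17 (95% interval 0.04 to 0.29) had an adjusted p of 0.188. Bub1, a related checkpoint kinase, was at 182 ± 16.8 CPM in WT and 187 ± 7.77 in KO. Cdc20, the activator of the anaphase-promoting complex, had the widest relative spread in WT (coefficient of variation 19.0%), from 56.2 to 90.8 CPM, and was at 67.8 to 93.9 CPM in KO. The WT and KO means were 99.9 and 102 CPM for Cenpa, the centromeric histone, 266 and 271 for Cenpe, a kinetochore motor, and 103 and 99.6 for Birc5, or survivin, of the chromosomal passenger complex.

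Over all 11 libraries the genes of the core mitotic engine did not separate the groups. Cdk1 (chromosome 10, 69335146 to 69352938) was at 144, 137, 131, 149.6 and 137 CPM in WT S_252, S_254, 1, 3 and 4. In KO S_258, S_280, S_284, 2, 3 and 4 it was at 129, 117, 146, 125, 140.3 and 126 CPM. These ranges overlapped, with a log2 FC of -0.10 (95% interval -0.25 to 0.05, adjusted p = 0.566). Ccna2, or cyclin A2, was at 296 ± 28.8 CPM in WT and 277 ± 18.3 in KO. Its KO libraries were below both WT libraries in the Ovation set (log2 FC -0.30, limma adjusted p = 0.139). In the NEBNext set the groups overlapped (log2 FC 0.08, limma adjusted p = 0.707). Ccnb1 had opposite signs in the sets, with values given below. Ccnb2, or cyclin B2, was at 58.7 ± 8.30 CPM in WT and 62.3 ± 2.64 in KO. Among the mitotic kinases the WT and KO means were 78.6 and 75.2 CPM for Aurka, which acts at spindle poles, 73.2 and 74.9 for Aurkb of the passenger complex, 71.9 and 76.6 for Plk1, a polo-like kinase, and 96.0 and 95.9 for Ttk, the checkpoint kinase MPS1. None of the 4 kinases had an absolute log2 FC above that of Plk1, at 0.10.

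Spindle motor and assembly genes were all fitted above 0 over all 11 libraries, by at most 0.11 on the log2 scale. Of these 4 genes 0 passed, where 2.09% of all tested genes did. By set, 1 of the 4 was above 0 in Ovation libraries (median -0.06) and 4 were in NEBNext libraries (median 0.14). Kif23 (chromosome 9, 61915905 to 61946774) was at 102, 98.9, 91.7, 95.1 and 97.2 CPM in WT S_252, S_254, 1, 3 and 4. In KO S_258, S_280, S_284, 2, 3 and 4 it was at 91.9, 102, 98.1, 98.0, 105 and 104 CPM, so that the groups overlapped. Kif11, the motor that pushes spindle poles apart, was at 276 ± 24.8 CPM in WT and 293 ± 21.2 in KO. Kif20a, a cytokinesis motor, was at 153 ± 7.34 CPM in WT and 165 ± 15.3 in KO. Tpx2, a spindle assembly factor that activates Aurora A, was at 253 ± 14.3 CPM in WT and 256 ± 14.6 in KO.

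The library sets were then compared. Within the Ovation set (2 WT, 3 KO) limma called 0 of the 40 genes, where 1.15% of all tested genes were called, and 9 of 40 had an unadjusted p under 0.05, against 17.1% of all. Within the NEBNext set (3 WT, 3 KO) limma also called 0, where 0.0231% of all were called, and 7 of 40 had an unadjusted p under 0.05, against 12.0%. Ccne1, Mki67, Mad2l1 and Ccnb1 were in both groups of genes, the last 2 with opposite signs. At the interaction of genotype and set 0 genes of the 40 and 0% of all tested genes had a limma adjusted p under 0.05, and at an unadjusted p under 0.05 there were 1 of 18 S-phase genes and 5 of 22 mitotic genes, against 13.0% of all. Mitotic genes were centred on a log2 FC of -0.0038 (median) in Ovation libraries, with 11 of 22 above 0, and on 0.11 in NEBNext libraries, with 18 of 22 above 0. For all tested genes these medians were 0.01 and -0.0064. The S-phase genes had medians of -0.04 and -0.05. Rrm2 alone of the 40 genes passed in the Ovation set under other settings (filter of 5 CPM, median scaling or robust variance), and both Rrm2 and Gins2 did when KO S_280 was left out.

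Mad2l1 and Ccnb1 had the largest contrasts between sets. Mad2l1 (chromosome 6, 66535390 to 66547220), a spindle checkpoint protein, was at 193, 185, 145, 139 and 165 CPM in WT S_252, S_254, 1, 3 and 4. In KO S_258, S_280, S_284, 2, 3 and 4 it was at 137, 152, 147, 177, 176 and 167 CPM. In the Ovation set the KO libraries were below both WT libraries (log2 FC -0.38), and in the NEBNext set they were above all 3 (log2 FC 0.21). The limma p of the difference was 0.00034 unadjusted and 0.112 adjusted. Ccnb1 (chromosome 13, 100778650 to 100786570), or cyclin B1, was at 329 and 306 CPM in WT S_252 and S_254 against 238, 267 and 271 in KO S_258, S_280 and S_284. In the NEBNext set it was at 259.8, 259 and 264 CPM in WT 1, 3 and 4 against 290.2, 306 and 292 in KO 2, 3 and 4. The KO libraries were thus again below WT in one set and above it in the other (log2 FC -0.30 and 0.18). The limma adjusted p of this difference was 0.133 (0.00093 unadjusted). Ccna2 (-0.30 and 0.08), Rrm2, Tpx2 (-0.13 and 0.13) and Kif11 (-0.08 and 0.21) made up the other differences with an unadjusted p under 0.05, with adjusted p between 0.184 and 0.376. In these 6 genes the set difference had the same sign, and their sharing of the same libraries makes them no independent evidence of it. The 4 measured somite markers split between the sets the other way (median log2 FC 1.05 in Ovation and -0.92 in NEBNext), and their part in these differences was not tested.

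**Figure D4:**
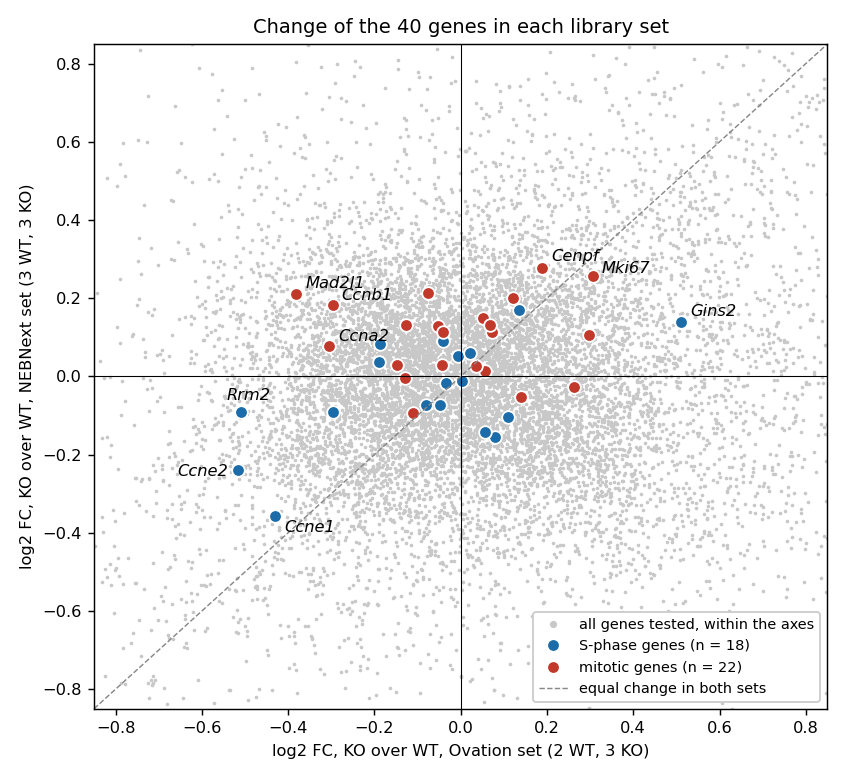
Fitted log2 FC of KO over WT in the Ovation set (x axis) and in the NEBNext set (y axis) for the 18 S-phase genes (blue) and the 22 mitotic genes (red). Grey points are all tested genes that lie within the axes, and genes with larger changes are not shown. Mad2l1 and Ccnb1 lie in the upper left, below 0 in one set and above 0 in the other, while Ccne1 and Mki67 lie close to the line of equal change.

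Single libraries moved the 2 classes in different ways. In each library the median over a class was taken of the differences in log2 level from each gene's mean over all libraries. For the 18 S-phase genes these medians ran from -0.0038 to 0.09 in WT and from -0.07 to 0.0067 in KO. For the 22 mitotic genes the medians ran from -0.10 in WT 3 to 0.07 in WT S_252 among WT. Among KO they ran from -0.06 in KO S_258 to 0.09 in KO 3, so the ranges overlapped. WT 3 had the lowest level of 6 of the 22 mitotic genes and the highest of 3, and WT S_252 the lowest of 5 and the highest of 3. Cdc20 was lowest in WT S_252 and Cenpf highest in KO 2. No library was at the same end for most genes.

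**Figure D5:**
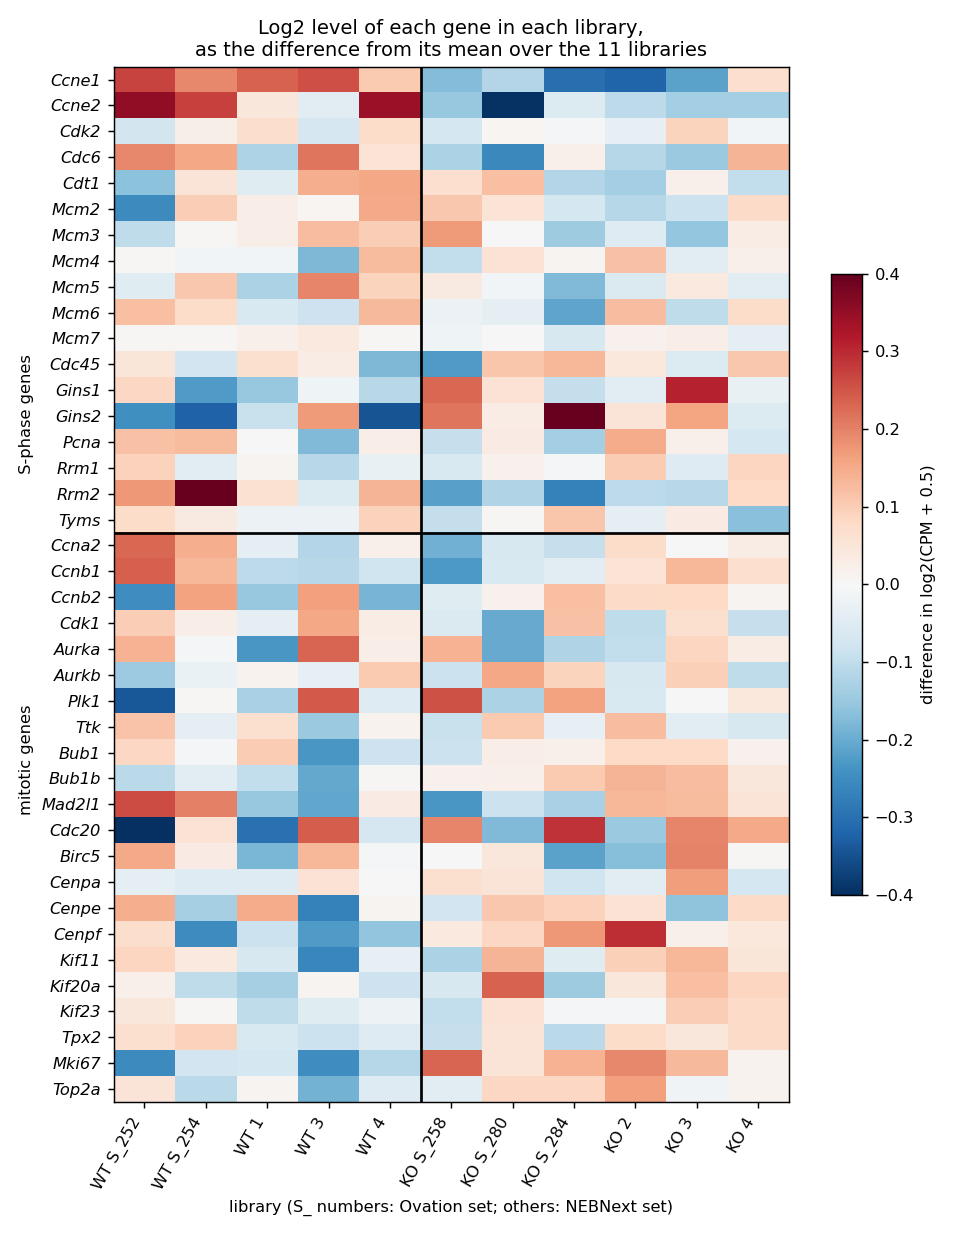
Log2(CPM + 0.5) of each gene in each library, as the difference from the gene's mean over the 11 libraries (red above, blue below, colours saturating at 0.4 on either side), with lines between WT and KO and between the classes. The Ccne1 row is red in WT and blue in 5 of 6 KO columns, the Mki67 row is blue in WT and red or pale in KO, and most other rows are mixed.

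Further genes of the same processes were read from lists of 42 replication, 49 mitosis and 30 cycle control genes. Of 42 further replication genes 0 passed, where 2.09% of all tested genes did. Their median log2 FC was -0.02, with 20 above 0 and 22 below. At a limma unadjusted p under 0.05 there were 5 (11.9%), against 14.7% of all tested genes. Dut, which removes dUTP, was at 124 ± 9.56 CPM in WT and 108 ± 6.201 in KO (log2 FC -0.19, adjusted p = 0.209), and Pola1, the catalytic subunit of DNA polymerase alpha, at 115 ± 10.8 and 132 ± 8.48 (log2 FC 0.19, adjusted p = 0.248). Of the 47 further mitosis genes in the table, 42 were above 0, with a median log2 FC of 0.06, where 6519 of all 12996 tested genes were above 0. By set, 25 of the 47 were above 0 in Ovation libraries (median 0.01) and 38 in NEBNext libraries (median 0.14). The 47 genes share the same libraries, so these counts are not independent evidence of a rise. Of them 1 rose, where 1.04% of all tested genes did. It was Kif14, a motor of cytokinesis, at 43.7 ± 2.86 CPM in WT and 54.8 ± 3.65 in KO (log2 FC 0.33, limma adjusted p = 0.0422). Single WT libraries ranged from 40.5 to 48.2 CPM for Kif14 and single KO libraries from 48.8 to 59.5. The call held in 2 of 11 fits that left out a library, with adjusted p from 0.0401 without KO S_284 to 0.127 without WT S_252. Among 27 measured cycle control genes 0 passed (2.09% of all tested genes did), with 16 below 0. At a limma unadjusted p under 0.05 there were 3 (11.1%), against 14.7% of all tested genes. Tfdp2, a partner of E2F factors, was at 85.4 ± 5.24 CPM in WT and 104 ± 8.28 in KO (log2 FC 0.28, adjusted p = 0.0655), and Wee1, an inhibitor of CDK1, at 46.9 ± 2.56 and 55.4 ± 6.39 (log2 FC 0.24, adjusted p = 0.219).

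The samples themselves read as limb buds, and the HL genes Tbx4 and Pitx1 were present. All 8 listed HL bud genes were present, Tbx4 and Pitx1 included, with a summed level of 658 to 919 CPM in WT and 744 to 1052 in KO, and the forelimb gene Tbx5 was not in the table. Of the 8, 5 were fitted above 0 and 3 below. Msx1 alone passed across all libraries, falling from 62.8 ± 7.03 CPM in WT to 38.6 ± 2.32 in KO (limma adjusted p = 0.0027). Prrx1, the largest part of the sum, was at 421 ± 85.4 CPM in WT and 583 ± 98.3 in KO (log2 FC 0.48, limma adjusted p = 0.0927). Within the Ovation set Prrx1 also passed (limma adjusted p = 0.0484). Fgf10 was at 34.5 ± 5.10 CPM in WT and 23.3 ± 5.04 in KO (log2 FC -0.57, limma adjusted p = 0.0828). Summed markers of other cells overlapped between the groups for surface ectoderm (198 to 282 CPM in WT, 168 to 292 in KO, 7 of 7 genes present), endothelium (176 to 237 and 194 to 266, 6 of 6), muscle precursors (35.4 to 48.6 and 32.5 to 47.1, 3 of 4) and erythroid cells (1785 to 11747 and 1355 to 13076, 7 of 7). Macrophage markers (2.36 to 5.49 CPM in WT, 3.35 to 6.28 in KO, 2 of 4) and neural crest markers (10.4 to 18.8 and 11.9 to 18.8, 2 of 4) also overlapped. Most of the muscle precursor sum came from Met (log2 FC 0.06). Pax3 was at 8.42 ± 5.46 CPM in WT and 3.56 ± 3.52 in KO, with overlapping groups (log2 FC -1.39, limma adjusted p = 0.319). Somite markers summed to 13.0 to 62.3 CPM in WT and 9.41 to 51.6 in KO (4 of 5 present), and all 4 had opposite signs in the sets, as given above. Neuronal markers summed to 3.79 to 4.59 CPM in WT and 2.10 to 3.92 in KO (2 of 5 present). Of these Tubb3, a neuronal tubulin, was lower in every KO library than in every WT library, at 1.34 ± 0.292 CPM in WT and 0.479 ± 0.198 in KO (log2 FC -0.93, limma adjusted p = 0.0769). The part of these cells in the levels above was not tested. Meis1 and Meis2 transcripts did not pass the test (log2 FC 0.10 and 0.07, limma adjusted p = 0.755 and 0.864), and values per gene do not show whether an exon was deleted. By set, the log2 FC of Meis2 was 0.39 in Ovation and -0.19 in NEBNext libraries (limma adjusted p of the difference = 0.182). For Meis1 these values were -0.05 and 0.23 (limma adjusted p of the difference = 0.637).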

How the data were processed

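Hindlimb RNA was profiled in 5 WT and 6 M1KO;M2KO embryos. Per the labels and methods, adaptors were trimmed with cutadapt 1.3 and expected counts were estimated with RSEM 1.2.3 on GRCm38, with versions given for the Ovation set. The authors then applied TMM and ComBat and deposited CPM on a linear scale, which summed to between 754534 and 805762 per library. The sources do not say if ComBat knew the genotypes, and a fit to its output can understate the residual variance. Read totals were not recoverable, so the depth of each library is unknown and counting error could not be estimated.

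The model for log2(CPM + 0.5), run in R 4.3.3 with limma 3.58.1, had terms for genotype and for library set, used limma-trend and left 8 residual degrees of freedom. P-values were Benjamini-Hochberg adjusted over 12996 genes, after 724 below 1 CPM in 4 libraries were removed. FC are fitted KO over WT and include the pseudocount. The same fit was run within each set and with an interaction. GENCODE M21 gave positions and exon lengths. The 40 genes, lists and named genes were chosen with earlier results of these data known. Values in every library are given, in each class, for genes called, for the 4 smallest p-values, the 2 largest changes, the 2 smallest interaction p-values and the highest and lowest level per length, and for Mki67, Top2a, Pcna and Cdk1. From the other lists, called genes or else the 2 with the smallest p are named. Alternatives were other pseudocounts, filters, scalings and variance models, no set term, a replicate block, litter 1 alone in the Ovation set, each set alone and leaving out each library. Plots used Python 3.11.15, pandas 2.3.3, numpy 2.4.6 and matplotlib 3.10.9.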

Additional observations from a re-analysis of the deposited data

Results flagged for a closer look

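Among 80 groups of values (40 genes in WT and in KO), 1 held a library far from the others. Ccne2 in KO S_280 was at 38.5 CPM, while the nearest KO library was at 45.7 and the highest at 49.0, so that its gap was 0.691 of the range. Chance gives such a gap in about 1 in 20 groups, or 4 of 80.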

How the results depend on the processing

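Of 960 values (40 genes under 24 alternatives), 883 kept their direction and side of the threshold, 60 changed sign with neither value called, in 24 genes, 10 lost a call (all Ccne1), 7 gained one (Ccne2 and Mki67) and 0 called values reversed. Scaling moved the median of all genes by at most 0.027 on the log2 scale.

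The 272 genes changed became 102 with litter 1 alone in the Ovation set, 150 in the Ovation set alone, 3 in the NEBNext set alone and 106 to 337 without 1 library. The 1 S-phase gene became 2 with no set term and 0 with no mean-variance trend (Ccne1 adjusted p = 0.0610), with litter 1 alone (0.103) or in either set alone, and 0 to 2 without 1 library. The 0 mitotic genes became 1, Mki67, with a filter of 5 CPM (adjusted p = 0.0433), total scaling (0.0263), no set term (0.0259) or robust variance (0.0291), and 0 to 1 without 1 library. With no set term Ccne2 had an adjusted p of 0.0445. The Ovation count of 150 became 394 with robust variance, 16 with no trend and 22 to 389 without 1 library. For NEBNext the 3 became 50, 1 and 2 to 49. The 0 genes whose change differed between sets became 12 with total scaling, 13 with robust variance and 0 to 46 without 1 library, none of them among the 40 genes. The median log2 FC of mitotic genes, 0.04, was 0.11 in the NEBNext set alone. The cause of these shifts was not tested.

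A replicate block changed no call among the 40 genes (1 S-phase, 0 mitotic) and gave 290 genes in all. Deviations from the group mean had a correlation of 0.20 between WT 3 and KO 3 and of -0.04 between WT 4 and KO 4. For unlike numbers it was -0.09 (WT 3 and KO 4) and -0.16 (WT 4 and KO 3). With so few libraries these correlations cannot settle whether the numbers pair the samples. Unknown depth limits the precision of low levels.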

Other observations

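Beyond the 40 genes, 4 of the 47 further mitosis genes had every KO library above every WT library, where 1.82% of all tested genes did, namely Kif14, Nusap1, Smc4 and Dlgap5. The last 3 are named after their values were seen. Nusap1, a protein that bundles spindle microtubules, averaged 77.5 ± 7.36 CPM over the 5 WT and 97.4 ± 8.59 over the 6 KO libraries (± SD), with a log2 FC of 0.33 and a limma adjusted p of 0.0611. Smc4, a condensin subunit, was at 406 ± 28.8 and 466 ± 12.1 CPM (log2 FC 0.20, limma adjusted p = 0.127). Dlgap5, a factor of kinetochore fibres, was at 76.8 ± 2.80 and 86.4 ± 3.43 CPM (log2 FC 0.17, limma adjusted p = 0.197).

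Further replication genes lay lower in the Ovation set, with a median log2 FC of -0.12, than in the NEBNext set, with 0.09, and 34 of 42 had a set difference above 0. Over all tested genes 6178 of 12996 did. The 42 genes share the same libraries, so the count is not independent evidence of a set difference. Orc5, a subunit of the origin recognition complex named after its values were seen, had a log2 FC of -0.52 in Ovation and 0.28 in NEBNext libraries, and the adjusted p of that difference was 0.104 in limma. Cdkn1c, the CDK inhibitor p57, went the other way. Its levels were 35.1 and 34.1 CPM in WT S_252 and S_254 against 55.7, 41.1 and 55.4 in KO S_258, S_280 and S_284. In the NEBNext set they were 53.7, 61.0 and 49.8 CPM in WT 1, 3 and 4 against 33.7, 31.9 and 35.4 in KO 2, 3 and 4. KO was thus above WT in one set and below it in the other (log2 FC 0.53 and -0.69), and the limma adjusted p of the difference was 0.0741. Cdkn1c was also chosen after its values were seen. Sex, litter and library preparation differ between the sets or groups, and their part in these differences was not tested.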
